A study of Mus musculus with 6 samples.

Results

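Mac2 is one of the 4 macrophage clusters, Mac1 to Mac4, that the authors drew from single heart cells of adult mice. Its members were taken by the authors' own cluster name in the deposited table of cells, and they number 1663 of 21706 cells, beside 2841 cells in Mac1, 460 in Mac3 and 2540 in Mac4. The tested hearts were Myh6-MerCreMer/+; YAP5SA-tg/+ (YAP5SA), in which cardiomyocytes express a form of the transcriptional coactivator YAP that the Hippo kinases Lats1/2 cannot phosphorylate, and the controls carried the Myh6-MCM driver alone (Control). All animals received tamoxifen, which activates the cardiomyocyte-specific Cre, so the macrophages of a YAP5SA heart lie beside the altered cells and do not express the transgene by design. Hearts were digested on a Langendorff apparatus and captured by Drop-seq, either as recombined dissociated tissue or as cardiomyocytes enriched by settling. Mac2 cells were found in 5 of 6 libraries, with 395 and 687 cells in the YAP5SA tissue libraries numbered 1 and 2, 386 in YAP5SA enriched, 130 and 65 in the Control tissue libraries numbered 2 and 3, and 0 in Control enriched. Nothing in the labels says which libraries came from separate animals, so p-values below measure only the spread between libraries.

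Macrophages of the heart engulf dying cells and the vesicles that cardiomyocytes shed, and they release growth factors and cytokines. In mice, long-lived resident macrophages that carry Lyve1, Timd4, Folr2 and Cd163 are largely self-renewing, whereas macrophages with Ccr2 and major histocompatibility complex class II arise mainly from blood monocytes. The receptor Csf1r and its ligands maintain both kinds.

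The libraries differed in depth and in the RNA they share with other cells. Mac2 cells held a median of 1651, 2148 and 1328 UMIs (unique molecular identifiers, each standing for 1 captured transcript) in the YAP5SA libraries, against 1021 and 1065 in the Control libraries. Their sums were 730481, 1649368 and 575132 UMIs in the same YAP5SA libraries, against 144382 and 75238 in Control, so that 1 UMI is worth 13.3 CPM (counts scaled to a common total) in Control tissue-3. The median share of mitochondrial UMIs per Mac2 cell was 2.73%, 2.27% and 5.73% in YAP5SA against 2.65% and 18.4% in Control, and Control tissue-3 stood apart. No barcode was shared between Mac2 cells of different libraries, and over all 21706 cells 10 barcodes, held by 20 cells, were. Levels below are CPM of all Mac2 UMIs of a library, and values run in the order tissue-1, tissue-2, enriched for YAP5SA and tissue-2, tissue-3 for Control.

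The 3 macrophage markers were present in Mac2 in every library. Cd68, a lysosomal membrane protein, had 705, 631 and 683 CPM in YAP5SA against 997 and 439 CPM in Control. Fcer1g, the signalling chain of Fc receptors, had 2194, 2331 and 2066 CPM in YAP5SA against 2570 and 1276 CPM in Control. For these 2 markers the YAP5SA libraries lay between the Control libraries. Csf1r had 660, 523 and 532 CPM in YAP5SA against 575 and 718 CPM in Control, again overlapping. None of the 3 passed the test between genotypes (edgeR quasi-likelihood, adjusted p = 0.914, 0.990 and 0.815). Over libraries, Cd68 averaged 691 ± 201 CPM in Mac2 (SD, n = 5), beside 622 in Mac1, 649 in Mac3 and 537 in Mac4. These markers place Mac2 among macrophages and do little to separate it from the other clusters.

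What set Mac2 apart by level were genes of resident-type macrophages. Since the authors clustered these cells on the same transcripts, the differences between clusters are given as a description with no test. The gene with the largest difference was Lyve1, a hyaluronan receptor of resident macrophages and lymphatic vessels. Lyve1 had 1485, 1244 and 2353 CPM in Mac2 of YAP5SA and 810 and 2193 CPM in Mac2 of Control, with a mean of 1617 ± 648 CPM (SD, n = 5). Its mean was 248 CPM in Mac1, 470 in Mac3 and 288 in Mac4. In each library the Mac2 level was above those of the other clusters.

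Scavenger and complement receptors followed. Cd163, the receptor for hemoglobin bound to haptoglobin, averaged 308 CPM in Mac2, beside 74.0 in Mac1, 119 in Mac3 and 92.4 in Mac4. Vsig4, which binds complement C3 fragments, averaged 109 CPM in Mac2, beside 3.69 in Mac1, 34.8 in Mac3 and 14.7 in Mac4. Timd4, a receptor for phosphatidylserine on dying cells, averaged 61.2 CPM in Mac2, beside 17.6 in Mac3 and 26.4 in Mac4, with 159 CPM in Control tissue-3 and 20.6 to 48.5 CPM in the other libraries. Fcna, a ficolin that recognises sugars on microbes, averaged 277 CPM in Mac2, beside 40.5 in Mac1, 83.1 in Mac3 and 72.0 in Mac4. Folr2, a folate receptor, averaged 689.5 CPM in Mac2, beside 194 in Mac1, 380 in Mac3 and 245 in Mac4.

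Receptors and enzymes with other roles were high in Mac2 as well. Ednrb, an endothelin receptor, averaged 293 CPM in Mac2, beside 31.9 in Mac1, 23.4 in Mac3 and 77.3 in Mac4. Cbr2, a carbonyl reductase, averaged 1513 ± 301 CPM in Mac2 (SD, n = 5), beside 385, 574 and 474 in Mac1, Mac3 and Mac4. Ltc4s, the synthase of leukotriene C4, averaged 956 ± 329 CPM in Mac2, beside 286, 413 and 270. All 3 genes were above the other clusters in each library. Wfdc17, a small secreted whey acidic protein, averaged 2677 CPM in Mac2 and 790, 1211 and 607 CPM in Mac1, Mac3 and Mac4. Fcgrt, the neonatal Fc receptor that recycles antibodies, averaged 582 CPM in Mac2 and between 193 and 236 CPM in the others. Of the genes with at least 50 CPM in Mac2, 103 lay above all 3 other clusters in each library that could be compared; Fxyd2, Fgfr1, 1810011O10Rik, Tns1 and Stard8 complete the 15 with the largest differences.

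**Figure D1:**
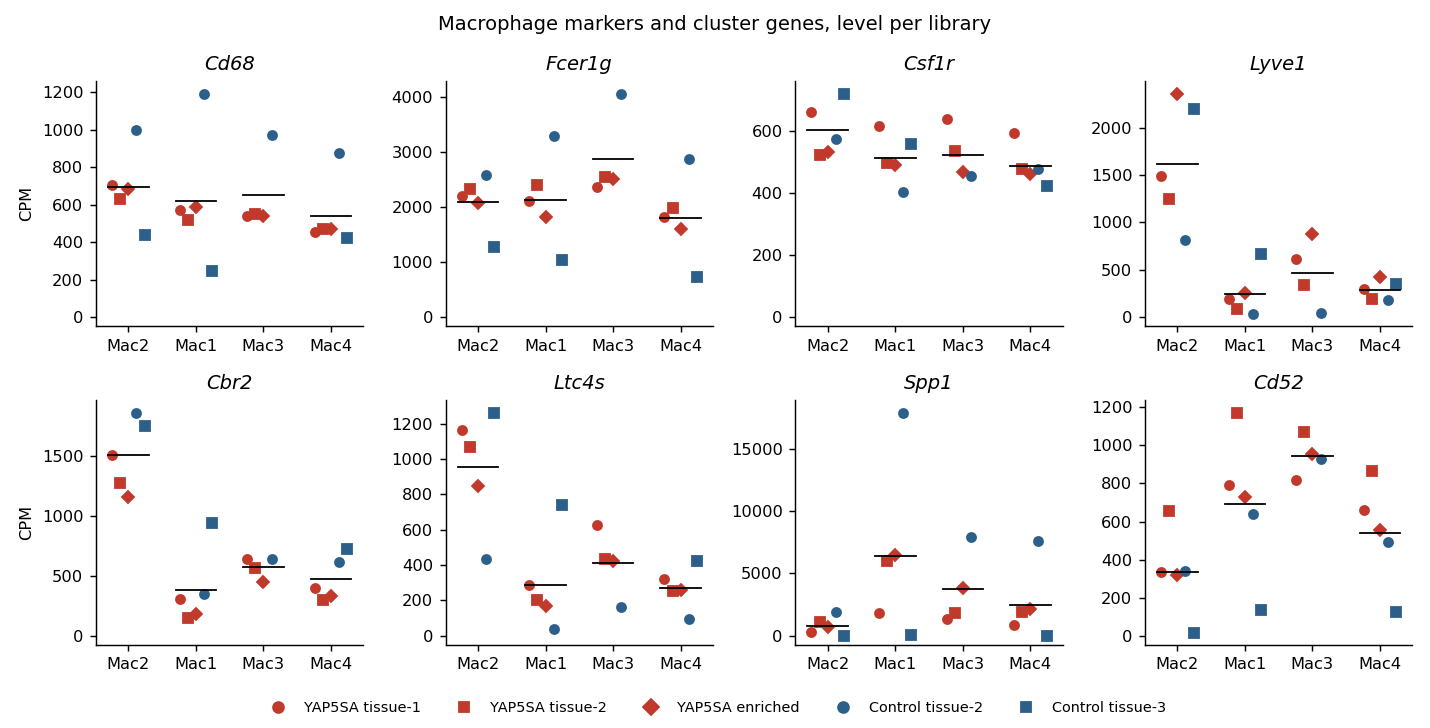
Level in CPM of 8 genes in Mac2, Mac1, Mac3 and Mac4, with 1 point per library (red, YAP5SA; blue, Control) and a bar at the mean; Mac3 of Control tissue-3 is left out, since it has 6 cells. Lyve1, Cbr2 and Ltc4s averaged 1617, 1513 and 956 CPM in Mac2, above every other cluster, whereas Spp1 averaged 804 CPM in Mac2 and 6421 CPM in Mac1.

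Lyve1, Folr2 and Cbr2 were also compared by the share of cells that held a UMI. With each cell thinned to 600 UMIs, 52.7%, 45.0% and 63.7% of Mac2 cells in YAP5SA and 33.85% and 67.7% in Control held a Lyve1 UMI, beside 11.7%, 4.79% and 10.9% of Mac1 cells in YAP5SA and 2.29% and 38.1% in Control. Fibroblasts, which should lack Lyve1, gave 0.230%, 0.672% and 0.560% in YAP5SA and 0.0683% and 7.23% in Control, with Control tissue-3 apart from the rest. For Folr2 the shares in Mac2 were 34.9%, 24.6% and 37.0% in YAP5SA and 40.0% and 49.2% in Control, against at most 0.414% of fibroblasts outside Control tissue-3. For Cbr2 they were 58.2%, 50.5% and 49.7% in YAP5SA and 60.8% and 63.1% in Control. Without thinning, 72.9%, 66.7% and 81.6% of Mac2 cells in YAP5SA and 46.2% and 78.5% in Control held a Lyve1 UMI.

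Most listed resident-type genes shared this pattern. Of 24 genes on a list of resident-type macrophages, 23 had a higher mean log2 CPM in Mac2 than in each of the other 3 clusters, with medians of 1.15 over Mac1, 0.98 over Mac3 and 1.23 over Mac4 (log2). Over all 20006 features compared, 23.1% were highest in Mac2. The list holds Lyve1, Cd163, Timd4 and Folr2 because resident macrophages are known by them, so the count restates the identity of the cluster. Of 16 iron and heme genes 10 were above all 3 clusters, and of 25 immediate early genes 18 were. By contrast 0 of 29 interferon response genes and 0 of 52 G2/M genes were highest in Mac2. The interferon genes lay a median of 3.12 (log2) below their level in Mac3, and the G2/M genes a median of 3.37 below their level in Mac4. Of 20 genes of monocyte-derived macrophages 2 were highest in Mac2, with a median of 1.24 below Mac3. Of the other lists, 12 of 37 cytokine genes, 10 of 31 lysosomal genes and 3 of 42 S phase genes were highest in Mac2, of which the cytokine and lysosomal counts lie not far above the share over all features.

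Of genes with a mean of at least 50 CPM in any of the 3 other clusters, 25 were lower in Mac2 than in all 3. This held in each library that could be compared. Cd52, a surface glycoprotein of leukocytes, averaged 332 CPM in Mac2, beside 694 in Mac1, 942 in Mac3 and 539 in Mac4. Tmsb10, an actin-binding thymosin, averaged 81.4 CPM in Mac2, beside 191, 217 and 190. Fabp5, a fatty acid carrier, averaged 26.2 CPM in Mac2, beside 133, 95.8 and 79.0. Ptprc, the leukocyte phosphatase CD45, averaged 206 CPM in Mac2, beside 285, 368 and 326. These 4 genes had their lowest mean in Mac2. Ccr2, the receptor that brings monocytes into tissue, had 20.5, 59.4 and 17.4 CPM in Mac2 of YAP5SA and 13.9 and 0 CPM in Mac2 of Control. In Mac1 the Ccr2 level was 229, 475 and 443 CPM in YAP5SA and 383 and 0 CPM in Control, so 4 of 5 libraries separated the clusters and Control tissue-3 held no Ccr2 UMI in either.

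Against Mac1 alone the gene with the largest deficit in Mac2 was Spp1, which encodes osteopontin, a secreted matrix protein of repair macrophages. Spp1 had 318, 1059 and 725 CPM in Mac2 of YAP5SA and 1919 and 0 CPM in Mac2 of Control. In Mac1 it had 1775, 5995 and 6449 CPM in YAP5SA and 17865 and 22.4 CPM in Control. The level moved with the library in both clusters and was highest in Control tissue-2 and lowest in Control tissue-3. Thbs1, the matrix protein thrombospondin 1, averaged 17.2 CPM in Mac2 and 71.5 in Mac1. Of genes with a mean of at least 50 CPM in Mac2, 379 were higher in Mac2 than in Mac1 in each library. Of those with at least 50 CPM in Mac1, 318 were lower in Mac2 in each library.

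Mac2 made up much the same share of macrophages in 4 of 5 libraries. It was 21.7% (exact 95% Clopper-Pearson interval 19.9% to 23.7%), 22.1% (20.6% to 23.6%) and 21.1% (19.3% to 23.1%) of 1818, 3110 and 1827 macrophages in YAP5SA. It was 21.6% (18.4% to 25.1%) and 43.9% (35.8% to 52.3%) of 601 and 148 macrophages in Control. The YAP5SA shares lay close to that of Control tissue-2, YAP5SA enriched just below it, and Control tissue-3 alone was apart. Intervals cover counting error only, and the settling step of the enriched library can set these shares. Of all cells in a library, Mac2 made up 10.3%, 11.7% and 8.45% in YAP5SA against 4.46% and 2.09% in Control, and 0 of 1405 cells in Control enriched, with an exact upper limit of 0.262%.

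By the authors' phase calls most Mac2 cells were in G1 or S. The share in S was 43.3%, 42.5% and 48.4% in YAP5SA against 42.3% and 26.2% in Control. The share in G2/M was 4.56%, 4.51% and 6.22% in YAP5SA against 3.85% and 10.8% in Control. Both genotypes overlapped in the G2/M share, and in the S share Control tissue-3 was low. Mac4 differed, with 81.3%, 75.4% and 82.1% of its cells in G2/M in YAP5SA and 72.5% and 80.0% in Control. With each cell thinned to 1000 UMIs, which kept 343, 634 and 291 Mac2 cells of YAP5SA and 69 and 44 of Control, 72.0%, 66.7% and 73.9% of those in YAP5SA held a UMI of an S phase gene, against 73.9% and 47.7% in Control. The same shares without thinning were 74.9%, 80.9% and 78.5% in YAP5SA against 69.2% and 50.8% in Control. Phase calls also read free RNA, so no rate of division is taken from them.

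Between YAP5SA and Control hearts, 2 of 7566 genes tested passed in Mac2 (0.0264%; edgeR quasi-likelihood F test, Benjamini-Hochberg adjusted p under 0.05), and both fell. Without the adjustment 393 genes (5.19%) were higher and 267 (3.53%) lower in YAP5SA at p under 0.05. DESeq2 called 4 higher and 29 lower. Groups of 3 and 2 libraries did not overlap for 24.7% of genes with YAP5SA higher and for 9.08% with YAP5SA lower, so a lack of overlap alone is common here. Over all genes the log2 fold change had a median of 0.07, or 0.18 when scaled by library totals alone, and changes are read against it.

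Apoe, the lipid carrier apolipoprotein E that macrophages secrete to export cholesterol, fell in Mac2 of YAP5SA hearts. It had 1899, 1773 and 2182 CPM in YAP5SA against 8152 and 14182 CPM in Control. All 3 YAP5SA libraries were far below both Control libraries and close to each other. The log2 fold change was −2.72 (SE 0.35, adjusted p = 0.0138). Without Control tissue-3 it was −2.04 (adjusted p = 0.00054), and the call was lost when any 1 YAP5SA library was left out (adjusted p of 0.789 without tissue-1, 0.751 without tissue-2 and 0.180 without enriched, with log2 fold changes from −2.87 to −2.72) and when preparation was a term (adjusted p = 0.0507). It was also lost with 65 cells per library (adjusted p = 0.124) and in G1 cells alone (adjusted p = 0.0646).

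Apoe fell in Mac1 and Mac4 as well. Separate fits from the same libraries gave log2 fold changes of −2.93 in Mac1 and −2.72 in Mac4 (adjusted p = 0.0340 and 0.0278). In Mac3 it was −2.86, with 1 Control library and so no spread between Control libraries. The difference between the effect in Mac2 and that in each other cluster did not pass (adjusted p = 0.962 for Mac1, 1 for Mac3 and 0.982 for Mac4). Monocytes had 916, 713 and 824 CPM of Apoe in YAP5SA against 7908 and 6290 CPM in Control. Fibroblasts had 559, 272 and 292 CPM in YAP5SA against 266 and 3247 CPM in Control, where the genotypes overlapped.

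Tmem176b, a membrane protein of antigen-presenting cells, was the other gene that fell, and it was chosen after its values were seen. It lies outside the naming rule, since another cell class held more than 5-fold its level in Mac2. The part of RNA from other cells in its fall was not tested. Tmem176b had 73.9, 42.4 and 55.6 CPM in YAP5SA, from 54, 70 and 32 UMIs, against 229 and 385 CPM in Control, from 33 and 29 UMIs. Every YAP5SA library was below both Control libraries. The log2 fold change was −2.57 (SE 0.37, adjusted p = 0.0252), and it was −2.01 without Control tissue-3 (adjusted p = 0.0282). Its call too was lost without any 1 YAP5SA library (adjusted p between 0.155 and 0.789), with 65 cells per library (0.188) and in G1 cells alone (0.252). Levels in Mac1 were 141, 75.3 and 125 CPM in YAP5SA against 329 and 447 CPM in Control, again without overlap.

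Further genes of resident-type macrophages were lower in YAP5SA without passing. Clec10a, a lectin that binds galactose sugars, had 67.1, 66.1 and 71.3 CPM in YAP5SA against 187 and 239 CPM in Control (log2 fold change −1.76, adjusted p = 0.0896). Ednrb had 170, 140 and 226 CPM in YAP5SA against 609 and 319 CPM in Control (−1.51, adjusted p = 0.165). Sepp1, the secreted selenium carrier selenoprotein P, had 816, 846 and 1029 CPM in YAP5SA against 1711 and 2711 CPM in Control (−1.49, adjusted p = 0.165). In these genes no YAP5SA library reached the lower Control library. Igf1, insulin-like growth factor 1, had 129, 130 and 177 CPM in YAP5SA against 443 and 213 CPM in Control (−1.32, adjusted p = 0.234). Timd4 had 41.1, 20.6 and 36.5 CPM in YAP5SA against 48.5 and 159 CPM in Control (−1.69, adjusted p = 0.440).

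Most resident-type genes among those with the largest differences between Mac2 and the other clusters had a negative log2 fold change, and none passed. Beside Ednrb and Timd4, given above, Vsig4, Fcgrt and Fcna were at −0.45, −0.38 and −0.36. Only Cd163 and Ltc4s were positive, Ltc4s at 0.06. Mrc1 and Folr2 are on the resident-type list but not among the genes with the largest differences. Lyve1 had a log2 fold change of −0.04 (SE 0.52) and Mrc1, the mannose receptor, one of −0.03 (SE 0.30), with adjusted p of 0.999 for both. Cd163 had 348, 265 and 459 CPM in YAP5SA against 242 and 226 CPM in Control (0.47, SE 0.35, adjusted p = 0.757), so it leaned the other way. Folr2 and Cbr2 were at −0.67 (SE 0.31) and −0.62 (SE 0.29), with adjusted p of 0.566 and 0.570. Of 23 resident-type genes tested, 0 rose and 1, Apoe, fell, 11 were lower without overlap against a background of 9.08%, and the median log2 fold change was −0.61 against 0.07 for all genes. Without Control tissue-3 the median was −0.38 and Apoe, Ednrb and Igf1 passed as lower (0.139% of all genes did), and without Control tissue-2, Apoe, Clec10a, Mgl2, Pf4, Sepp1 and Timd4 did (1.55% of all genes). In the same Mac2 cells cardiomyocyte markers had a median log2 fold change of −2.28 over 14 genes and fibroblast markers one of −1.85 over 8, and their part in the resident-type values was not tested.

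**Figure D2:**
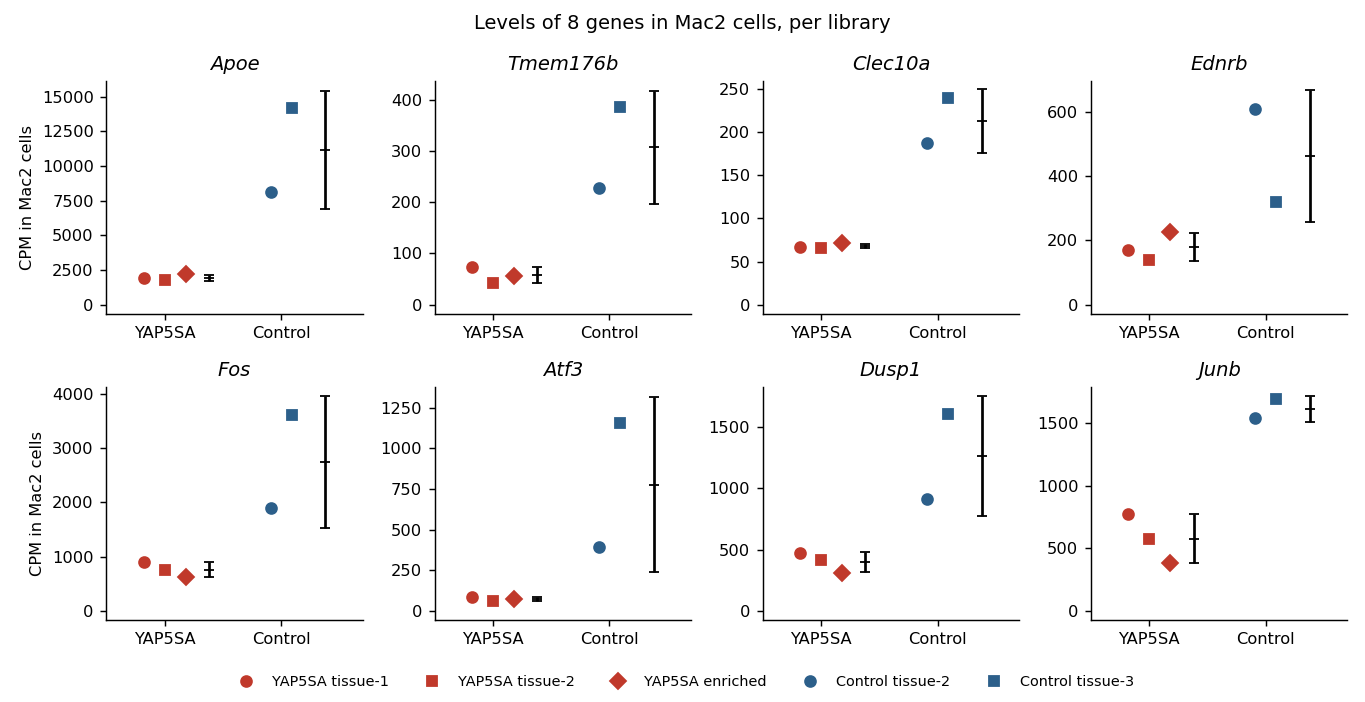
Level in CPM of 8 genes in Mac2 cells of YAP5SA (red) and Control (blue) hearts, with 1 point per library and the mean and SD beside each group (n = 3 and 2). Every YAP5SA point lies below every Control point, but only Apoe (adjusted p = 0.0138) and Tmem176b (adjusted p = 0.0252) passed the test.

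Immediate early genes are transcription factors and feedback regulators induced within minutes by stress or growth signals, and tissue digestion can also induce them. In Mac2 all 23 that could be tested had a log2 fold change below 0, with a median of −1.66 against 0.07 for all genes. With library totals alone 21 of 23 were below 0 and the median was −1.48. None passed the adjusted test. At an unadjusted p under 0.05 (edgeR) 17 were lower against a background of 3.53%, and 13 were lower without overlap against a background of 9.08%.

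Fos, a subunit of the AP-1 transcription factor, had 905, 762 and 619 CPM in YAP5SA against 1891 and 3602 CPM in Control (log2 fold change −2.06, SE 0.36, adjusted p = 0.0896). Atf3, a stress-induced repressor, had 87.6, 59.4 and 73.0 CPM in YAP5SA against 395 and 1156 CPM in Control (−3.61, SE 0.50, adjusted p = 0.0896). Over pooled libraries endocardial cells held 601 CPM of Atf3, beside 110 CPM in Mac2. Dusp1, a phosphatase that ends MAP kinase signalling, had 472, 416 and 306 CPM in YAP5SA against 914 and 1608 CPM in Control (−1.86, adjusted p = 0.118). Control tissue-3 was the highest library for each. Junb, another AP-1 subunit, had 772, 578 and 381 CPM in YAP5SA against 1538 and 1688 CPM in Control (−1.66, adjusted p = 0.124). Egr1, a zinc finger factor, had 226, 409 and 137 CPM in YAP5SA against 907 and 1914 CPM in Control (−2.66, adjusted p = 0.230). Of the listed genes Ier3 and Myc had log2 fold changes of −0.07 each, and their libraries overlapped. Lower values were not confined to Mac2. In separate fits Fos was at −1.83 in Mac1 and −1.57 in Mac4, Dusp1 at −1.97 and −1.58, and Junb at −1.61 and −1.18. Atf3 was at −3.75 in Mac1 (edgeR adjusted p = 0.0426) and −1.78 in Mac4. In Mac3, with 1 Control library, Fos was at −1.57, Dusp1 at −1.32, Junb at −1.41 and Atf3 at −0.74.

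The size of this pattern depended on Control tissue-3. Without that library the median log2 fold change of the list was −0.64, and Atf3, Btg2 and Fos passed as lower, where 0.139% of all genes did. Without Control tissue-2 it was −2.38, and 15 genes passed as lower, where 1.55% of all genes did. In the summed transcripts of Mac2 cells, Control tissue-3 also held more cardiomyocyte, fibroblast and endothelial marker RNA than any other library. The 14 cardiomyocyte markers, none of them at 0, summed to 3193, 1106 and 3958 CPM in YAP5SA against 5779 and 14485 CPM in Control. The 12 fibroblast markers, none at 0, summed to 593, 715 and 416 CPM in YAP5SA against 602 and 5080 CPM in Control. The part of this RNA and of the mitochondrial share in the immediate early pattern was not tested.

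RefSeq promoter windows on GRCm38.p6 run from 250 bases before to 50 after a gene start. They were at hand for 19 of the 23 immediate early genes, with more than 1 start for Egr2 alone. The half-site TGACG of the cyclic AMP response element, which factors of the CREB and ATF family bind, stood on either strand in 12 of their 23 windows, beside 20.8% of all 32851 windows. Several windows of Egr2 overlap and hold the same sites, so 1 promoter enters this count more than once. Of the 19 genes, Atf3, Fos, Dusp1, Junb, Btg2, Nr4a1, Fosb, Klf2, Klf4 and Egr2 had a match. The matches describe letters only and say nothing of binding. The windows of Atf3, Fos, Dusp1 and Junb, 4 of the genes described by library, are printed 5′ to 3′ in the direction of the gene with the half-site or its complement CGTCA in capitals. Where a pair of half-sites overlap in Dusp1, the capitals run through both. They lie at chr1:191183284-191183583 (minus strand) for Atf3, chr12:85473640-85473939 (plus strand) for Fos, chr17:26508423-26508722 (minus strand) for Dusp1 and chr8:84978699-84978998 (minus strand) for Junb.
Atf3: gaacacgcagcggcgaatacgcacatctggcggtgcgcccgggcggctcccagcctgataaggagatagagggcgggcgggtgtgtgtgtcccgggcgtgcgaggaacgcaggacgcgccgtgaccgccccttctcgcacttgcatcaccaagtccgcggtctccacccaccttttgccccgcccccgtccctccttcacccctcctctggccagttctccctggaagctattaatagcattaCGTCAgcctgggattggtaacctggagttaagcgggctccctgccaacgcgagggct
Fos: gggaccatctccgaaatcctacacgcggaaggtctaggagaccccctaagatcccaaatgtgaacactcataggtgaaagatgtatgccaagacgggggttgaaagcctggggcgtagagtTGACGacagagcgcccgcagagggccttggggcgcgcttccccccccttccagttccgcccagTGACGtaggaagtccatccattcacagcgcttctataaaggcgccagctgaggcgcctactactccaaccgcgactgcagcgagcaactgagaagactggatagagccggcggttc
Dusp1: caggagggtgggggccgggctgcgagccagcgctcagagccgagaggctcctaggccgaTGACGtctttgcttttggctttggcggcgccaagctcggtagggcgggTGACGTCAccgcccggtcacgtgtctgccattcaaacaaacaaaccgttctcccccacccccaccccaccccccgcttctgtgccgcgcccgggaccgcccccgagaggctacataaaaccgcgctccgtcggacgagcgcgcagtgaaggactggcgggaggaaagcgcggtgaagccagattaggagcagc
Junb: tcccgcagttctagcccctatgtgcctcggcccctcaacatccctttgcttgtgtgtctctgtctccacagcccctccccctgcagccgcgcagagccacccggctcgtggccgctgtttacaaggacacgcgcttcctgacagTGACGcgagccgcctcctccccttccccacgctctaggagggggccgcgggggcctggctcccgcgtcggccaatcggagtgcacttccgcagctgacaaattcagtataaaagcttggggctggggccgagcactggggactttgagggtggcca

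**Figure D3:**
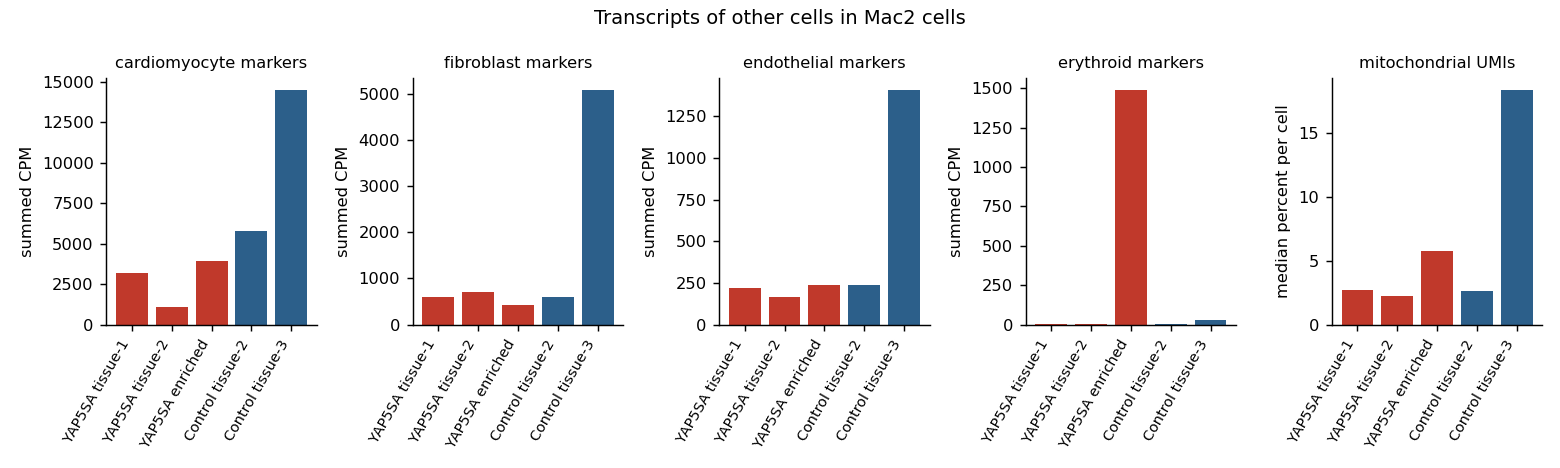
Summed level in CPM of marker lists of other cell types in Mac2 cells, and the median share of mitochondrial UMIs per cell in percent, with 1 bar per library (red, YAP5SA; blue, Control). Control tissue-3 has the tallest bar for cardiomyocyte (14485 CPM), fibroblast (5080 CPM) and endothelial (1406 CPM) markers and for mitochondrial UMIs (18.4%), and YAP5SA enriched for erythroid markers (1488 CPM).

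Some markers of other cell types were at 0 among Mac2 transcripts, while the rest of each list held UMIs. Of 11 markers of T or NK cells 6 were at 0 in every library, among them Cd3e, Cd3d, Trac and Trbc2, and the list summed to at most 7.27 CPM. Of 11 dendritic cell markers 5, with Flt3, Xcr1 and Ccr7, were at 0, and the list summed to at most 62.3 CPM. Of 9 neutrophil markers 3 were at 0 and of 8 epicardial markers 4, and these lists summed to at most 30.9 and 6.92 CPM. Only 1 of 10 smooth muscle and pericyte markers and 1 of 5 B cell markers were at 0. Those 2 lists summed to as much as 325 CPM (Control tissue-2) and 225 CPM (Control tissue-3). The 12 endothelial markers, none at 0, summed to 221, 165 and 239 CPM in YAP5SA against 235 and 1406 CPM in Control. The 11 monocyte markers, with Ear2 at 0, summed to 245, 270 and 109 CPM in YAP5SA against 478 and 796 CPM in Control. Nr4a1 is on both the monocyte and the immediate early list.

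No gene rose past the threshold. The higher gene with the smallest p was Alcam, an adhesion molecule, with 163, 196 and 186 CPM in YAP5SA against 34.6 and 39.9 CPM in Control (log2 fold change 2.20, SE 0.41, adjusted p = 0.118). All YAP5SA libraries were above both Control libraries, which held 5 and 3 UMIs of it. Tma7, a small conserved protein, had 122, 118 and 144 CPM in YAP5SA against 27.7 and 26.6 CPM in Control (2.11, adjusted p = 0.153). S100a6, a calcium-binding protein, had 1283, 1543 and 1121 CPM in YAP5SA against 499 and 372 CPM in Control (1.45, adjusted p = 0.153). Eno1, a glycolytic enolase, had 386, 248 and 250 CPM in YAP5SA against 83.1 and 79.7 CPM in Control (1.72, adjusted p = 0.165).

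Of the remaining leading genes, 2 are named as pseudogenes and their counts may be shared with their parent genes. Pcna-ps2 had 119, 144 and 125 CPM in YAP5SA against 20.8 and 26.6 CPM in Control (adjusted p = 0.124), and Tpt1-ps3 had 211, 221 and 110 CPM in YAP5SA against 27.7 and 39.9 CPM in Control (adjusted p = 0.153). Gm13461, a predicted gene, had 95.8, 58.2 and 76.5 CPM in YAP5SA and no UMI in either Control library (adjusted p = 0.124). Taking 3 counts over the Control group as the limit that a count of 0 allows, the ratio of pooled UMIs was at least 5.20. This limit covers counting error only and leaves out the spread between libraries.

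Cell cycle genes leaned higher in Mac2 of YAP5SA without any of them passing. Of 41 S phase genes tested 37 had a positive log2 fold change, as had 4174 of all 7566 genes. Their median was 0.45 against 0.07 for all genes, and 20 were higher without overlap against a background of 24.7%. Hells, a chromatin helicase of replicating cells, had 137, 75.8 and 106 CPM in YAP5SA against 34.6 and 13.3 CPM in Control (1.85, adjusted p = 0.350). Ccne2, a cyclin of S phase entry, had 60.2, 60.6 and 62.6 CPM in YAP5SA against 20.8 and 0 CPM in Control (2.07, adjusted p = 0.366). Both were higher in every YAP5SA library, but the Control values rest on 6 UMIs of Hells and 3 of Ccne2. Of 33 G2/M genes 25 were positive, with a median of 0.42, and 15 were higher without overlap. Top2a, a topoisomerase of dividing cells, had 111, 89.7 and 139 CPM in YAP5SA against 48.5 and 26.6 CPM in Control (1.37, adjusted p = 0.374). Within G1 cells alone the median was −0.29 over 7 S phase genes and −0.26 over 11 G2/M genes. The phase calls come from the same transcripts, so keeping G1 cells selects for low levels of such genes. The medians in G1 cells therefore cannot say whether the lean holds within a phase.

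Lists of macrophage function showed medians near that of all genes, and none of their members passed except Apoe on the cholesterol list. The median log2 fold change was 0.04 for 22 genes of apoptotic cell uptake, −0.12 for 23 of Csf1r signalling, −0.14 for 29 lysosomal genes, −0.14 for 19 cholesterol and lipid transport genes and −0.18 for 21 lipid and repair-associated genes. For 20 macrophage core genes it was 0.01, or −0.02 with size factors. Msr1, the scavenger receptor A, had 828, 884 and 685 CPM in YAP5SA against 499 and 133 CPM in Control (1.21, adjusted p = 0.366), and Mertk, a receptor for dying cells, had 115, 137 and 103 CPM in YAP5SA against 69.3 and 39.9 CPM in Control (0.93, adjusted p = 0.477). Both were higher in each YAP5SA library. Cst3, the protease inhibitor cystatin C, had 2233, 3046 and 3225 CPM in YAP5SA against 3712 and 7137 CPM in Control (−1.14, adjusted p = 0.366). Lpl, lipoprotein lipase, had 204, 144 and 162 CPM in YAP5SA against 298 and 558 CPM in Control (−1.50, adjusted p = 0.230). Over pooled libraries cardiomyocytes held 2890 CPM of Lpl, beside 178 CPM in Mac2. The median was −0.16 for 11 complement genes and −0.30 for 15 iron and heme genes.

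Inflammatory, interferon and antigen presentation genes gave a mixed picture. Of 29 cytokine and chemokine genes none passed, and the median was −0.42. Cxcl2, which attracts neutrophils, had 1201, 843 and 944 CPM in YAP5SA against 1454 and 2831 CPM in Control (−1.32, adjusted p = 0.323). Ccl2, which attracts monocytes, had 5973, 3345 and 3763 CPM in YAP5SA against 3740 and 3017 CPM in Control (0.21, adjusted p = 0.914), with overlap. Cd83, an activation marker, had 157, 107 and 104 CPM in YAP5SA against 277 and 425 CPM in Control (−1.67, adjusted p = 0.148). Of 21 interferon genes none passed, with a median of 0.07. Ifi47, an interferon-induced GTPase, had 24, 51 and 10 UMIs in YAP5SA and 0 in either Control library. Gbp2, another, had 11, 31 and 12 UMIs in YAP5SA and 0 in either Control library. By the same limit on pooled UMIs, which covers counting error only, the ratios were at least 2.11 and 1.34. Gbp2 was more than 5-fold higher in epicardial cells than in Mac2.

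Of 6 MHC class II genes none passed, and the median was −1.57. H2-Aa, a class II chain, had 2, 28 and 3 UMIs in YAP5SA against 3 and 28 UMIs in Control, or 2.74, 17.0 and 5.22 CPM against 20.8 and 372 CPM, so 1 library, Control tissue-3, carried the difference. Without it the median of the list was −0.32. With 600 UMIs per cell, H2-Aa was seen in 13.8% of Mac2 cells in Control tissue-3, in 0.769% of those in Control tissue-2 and in at most 1.16% of those in YAP5SA, beside 2.17% of fibroblasts in Control tissue-3. The median was 0.34 for 12 genes of monocyte-derived macrophages, 0.34 for 16 glycolysis genes and −0.32 for 40 nuclear oxidative phosphorylation genes. Of the 40, 5 were positive, beside 4174 of all 7566 genes.

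**Figure D4:**
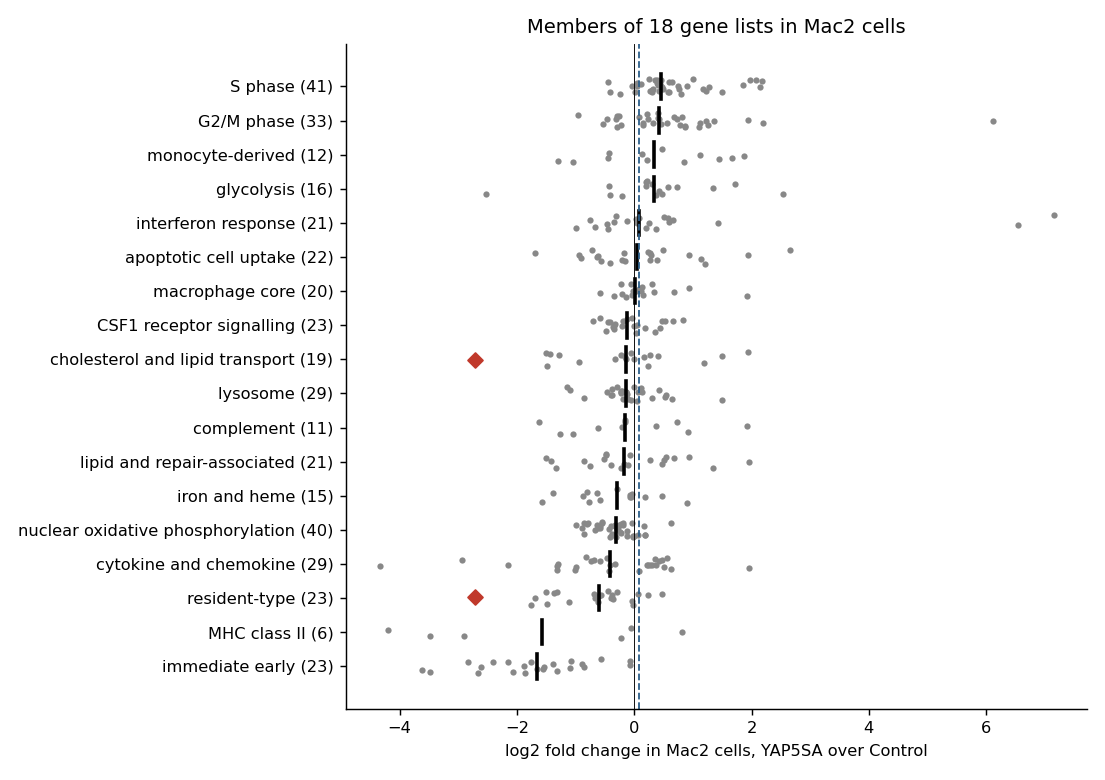
Log2 fold change, YAP5SA over Control in Mac2 cells, of the tested members of 18 gene lists, 1 point per gene (number tested in brackets), with a black bar at the list median, a dashed line at the median of all genes (0.07) and a red diamond for Apoe, the member that passed. The medians run from 0.45 for S phase to −1.66 for immediate early genes; points past 6 are genes without a UMI in Control, whose fitted value depends on the prior count.

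Whether the genotype effect in Mac2 differed from that in the other macrophage clusters was tested over 11380 genes with the library as a block. A higher effect in Mac2 can be a smaller fall there than in the other cluster. None of the genes called in the main fit passed between genotypes in Mac2 alone. Mac3 of Control tissue-3 had 6 cells and was left out, so the comparison with Mac3 rests on 1 Control library. The effect in Mac2 exceeded that in Mac1 for 8 genes (0.0703%) and was below it for none (8 and 7 without Control tissue-2), and it differed from that in Mac3 for 2 genes (0.0176%) and from that in Mac4 for 5 genes (0.0439%), 3 higher and 2 lower in Mac2, but 4 higher and 36 lower without Control tissue-2.

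Wfdc17 gave the smallest p against Mac1, and in separate fits it fell less in Mac2 (log2 fold change −0.83) than in Mac1 (−1.85). Its level was 1812, 2340 and 2299 CPM in Mac2 of YAP5SA against 3795 and 3137 CPM in Mac2 of Control. In Mac1 it was 300, 422 and 474 CPM in YAP5SA against 1613 and 1140 CPM in Control. The ratio of Mac2 to Mac1 was thus 6.03, 5.55 and 4.85 in YAP5SA against 2.35 and 2.75 in Control, without overlap. The effect in Mac2 minus that in Mac1 was 1.11 on the log2 scale (SE 0.16, adjusted p = 2.85e-08). It kept its sign and lost its call without Control tissue-2 (0.74, adjusted p = 0.559).

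Plin2, which coats lipid droplets, and Nrp1, a receptor for semaphorins and growth factors, had ratios that did not overlap either. Fitted per cluster, Plin2 had a log2 fold change of 0.93 in Mac2 and −0.21 in Mac1, and Nrp1 one of −0.19 and −1.20. For Plin2 the ratio of Mac2 to Mac1 was 1.25, 1.14 and 1.01 in YAP5SA against 0.522 and 0.462 in Control (difference 1.19, adjusted p = 0.0470). For Nrp1 it was 1.73, 1.75 and 2.06 in YAP5SA against 1.10 and 0.708 in Control (0.90, adjusted p = 0.0470). Plin2 lost its call without YAP5SA tissue-1 (1.12, adjusted p = 0.213), YAP5SA tissue-2 (1.13, adjusted p = 0.154) or Control tissue-2 (1.05, adjusted p = 0.843). Nrp1 lost it without any 1 of the 5 libraries (0.83 to 1.13, adjusted p between 0.0669 and 0.221).

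The lysosomal proteases Ctsd, Ctsl and Ctsb, the galactose-binding lectin Lgals3 and the membrane protein Ms4a7 completed the list against Mac1. Fitted per cluster, Ctsd had a log2 fold change of −0.11 in Mac2 and −1.10 in Mac1, Ctsb −0.40 and −1.09, and Lgals3 −0.18 and −0.96. Ctsl was at 0.53 in Mac2 and −0.44 in Mac1, and Ms4a7 at 0.20 and −0.50. For Ctsd the ratio of Mac2 to Mac1 was 1.61, 2.06 and 1.28 in YAP5SA against 0.767 and 1.42 in Control (difference 1.07, adjusted p = 1.05e-06). For Ctsl it was 1.10, 0.802 and 0.611 in YAP5SA against 0.348 and 0.654 in Control (1.16, adjusted p = 0.00180). For Lgals3 it was 0.867, 0.773 and 0.766 in YAP5SA against 0.446 and 4.76 in Control (0.85, adjusted p = 0.00658). In all 3 genes the ratios of the genotypes overlapped, with Control tissue-2 lowest. Ctsb and Ms4a7 had differences of 0.65 (adjusted p = 0.0292) and 0.86 (adjusted p = 0.0494), also with overlap. Without Control tissue-2 the differences of Ctsd (−0.020), Ctsb (−0.33), Lgals3 (−2.81) and Ms4a7 (−0.50) changed sign and that of Ctsl was 0.05 (adjusted p between 0.781 and 1). Without YAP5SA tissue-1 Ctsl, Ctsb, Lgals3 and Ms4a7 kept their sign but lost the call (adjusted p between 0.136 and 0.668), and without YAP5SA tissue-2 Ctsd, Ctsb, Lgals3 and Ms4a7 did (adjusted p between 0.0534 and 0.685), as did Ms4a7 without YAP5SA enriched (0.82, adjusted p = 0.0914).

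Against Mac3 the 2 genes were Ifi27l2a, an interferon-induced protein, and Ccl8, a chemokine. The ratio of Mac2 to Mac3 for Ifi27l2a was 0.862, 0.978 and 0.879 in YAP5SA against 1.63 in Control tissue-2 (difference −0.93, SE 0.19, adjusted p = 0.00931). For Ccl8 it was 1.28, 0.654 and 1.41 in YAP5SA against 1.98 in Control tissue-2 (−1.52, SE 0.33, adjusted p = 0.0189). Both lost their calls with size factors (adjusted p = 0.203 each). Ifi27l2a also lost it without any 1 YAP5SA library (−0.88 to −0.81, adjusted p between 0.143 and 0.542), and Ccl8 without YAP5SA tissue-2 (−0.65, adjusted p = 0.876).

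Against Mac4 the effect in Mac2 was higher for Ctsd (0.84, adjusted p = 0.0220), for Areg, which encodes the growth factor amphiregulin (2.98, adjusted p = 0.0220), and for Dbp, a clock-controlled transcription factor (3.01, adjusted p = 0.0220). It was lower for Atf3 (−1.27, adjusted p = 0.0404) and for mt-Rnr1, a mitochondrial ribosomal RNA (−0.66, adjusted p = 0.0459). Fitted per cluster, Ctsd had a log2 fold change of −0.11 in Mac2 and −0.89 in Mac4, Dbp −0.64 and −3.33, and Areg 1.95 and −1.03. Both lower calls were lost with size factors (adjusted p = 0.0965 and 0.268), with library totals (0.227 and 0.719) and without the filter on low counts (0.129 and 0.186). Over pooled libraries endocardial cells held 357 CPM of Dbp and 601 CPM of Atf3, beside 28.7 and 110 CPM in Mac2. The ratio of Mac2 to Mac4 for Areg was 2.33, 3.38 and 1.38 in YAP5SA against 0.789 and 0.0411 in Control, where Control tissue-3 held 1 UMI in Mac2. For Dbp it was 3.99, 3.32 and 1.92 in YAP5SA against 0.710 and 0.220 in Control. For Atf3 it was 1.27, 1.01 and 1.12 in YAP5SA against 1.76 and 4.64 in Control. In these 3 genes the genotypes did not overlap, but none kept its call without Control tissue-3 (Areg 1.52, adjusted p = 0.820; Dbp 2.01, adjusted p = 0.843; Atf3 −0.61, adjusted p = 0.825). Without YAP5SA tissue-1 or tissue-2 none of the 5 genes kept its call (adjusted p between 0.0783 and 0.637). For Ctsd the difference was −0.95 without Control tissue-2 (adjusted p = 0.793). For mt-Rnr1 it was −0.20 without Control tissue-3 (adjusted p = 0.896).

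**Figure D5:**
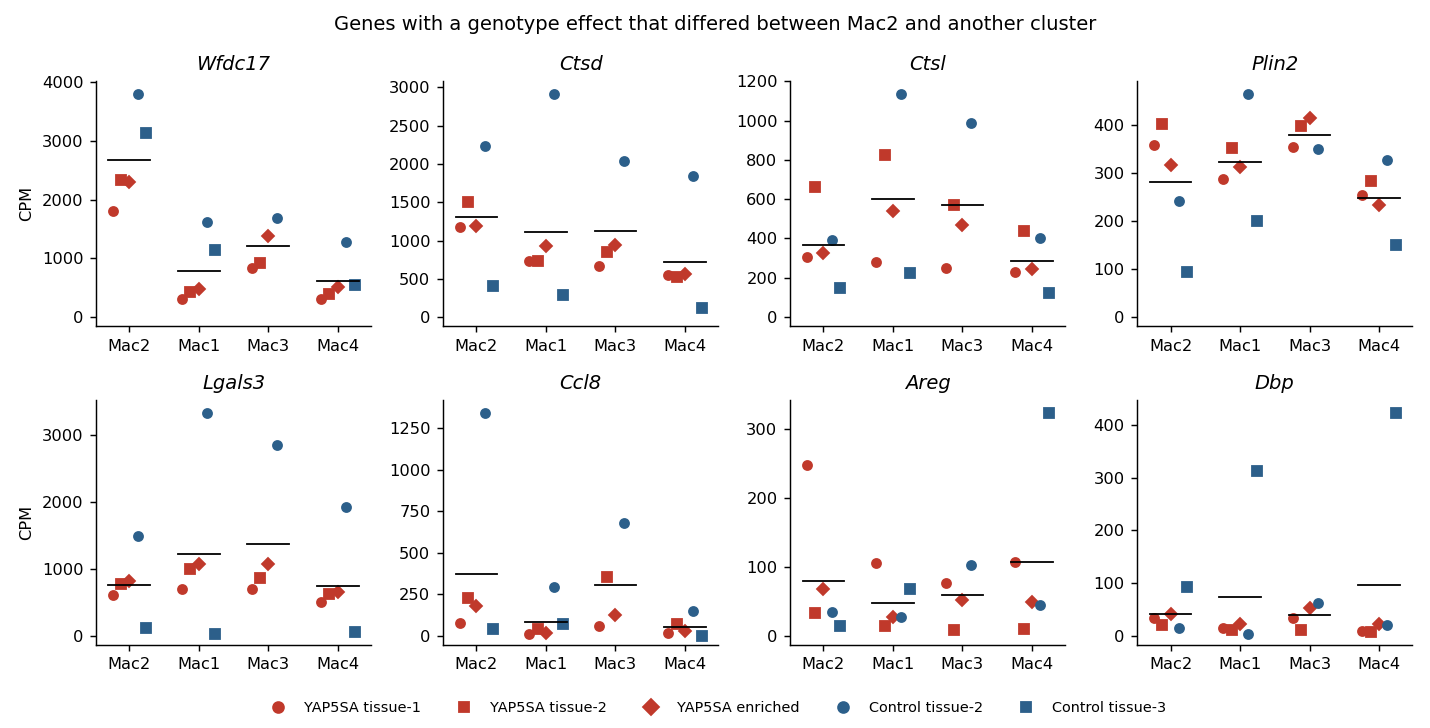
Level in CPM of 8 genes whose genotype effect in Mac2 differed from that in another macrophage cluster, with 1 point per library (red, YAP5SA; blue, Control) and a bar at the mean; Mac3 of Control tissue-3 is left out. Wfdc17 was higher in Mac2 than in Mac1 by a ratio of 6.03, 5.55 and 4.85 in YAP5SA against 2.35 and 2.75 in Control, and Control tissue-3 stood apart for Areg and Dbp in Mac4.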

How the data were processed

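Single heart cells were profiled by Drop-seq in 6 libraries, 3 per genotype. The authors deposited UMI counts per feature and cell as whole numbers, and a table of cells with library, cluster, phase call and the fraction of mitochondrial UMIs, printed here as a percent. Upstream tools named are Picard, STAR and Seurat 2.3.4, per the submitters' processing notes; the genome build and annotation are not given in the sources used here. The deposited scaled values were not used. No doublet caller was run, and the authors' clusters were taken as deposited. The table of cells numbers the YAP5SA tissue libraries 1 and 2 and the sample titles number them 2 and 3, so these were placed by genotype and preparation alone.

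Overlapping genes carry a joined name in 4 libraries. These 865 names and their members were combined into 657 families (21207 features). A further 1201 features occur in 1 style of annotation only (0.098% and 0.237% of UMIs in libraries with and without joined names) and were left out of the tests. The strand setting of the counting is not given, so overlapping and antisense genes cannot be told apart. Counts were summed per library and cluster, with at least 10 cells per sum. Genotype was tested in edgeR 4.0.16 under R 4.3.3 by the robust quasi-likelihood F test, after filterByExpr and TMM normalization, at a Benjamini-Hochberg adjusted p of 0.05, in Mac2 alone and as a cluster by genotype term with the library as a block. DESeq2 1.42.0 was an alternative. The fits were tested on simulated data. Preparation was not a term, because Control enriched holds no Mac2 cell. CPM are unscaled, fold changes are TMM-scaled, and log2 CPM between clusters used a prior count of 2. For levels between clusters, genes needed the same direction in every library with 10 cells of both clusters. They also needed a mean of at least 50 CPM in Mac2 where higher there, or in a cluster compared with it where lower. Between genotypes, genes were named by the smallest p in each direction at an average log2 CPM of at least 5 without overlap, unless more than 5-fold higher in a class of at least 100 cells, and by the 2 smallest p of each list; Folr2, Mrc1, Sepp1, Egr1, Ccl2 and some other list members were added after their values were seen. The members and the lists were chosen with earlier results of these data known. Precision is limited by 75238 to 1649368 Mac2 UMIs per library.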

Additional observations from a re-analysis of the deposited data

Results flagged for a closer look

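For 15 results the effect of YAP5SA in Mac2 differed from the effect in another macrophage cluster by the cluster by genotype term (edgeR quasi-likelihood, adjusted p under 0.05). Against Mac1 the log2 differences were 1.11 for Wfdc17, 1.19 for Plin2, 0.90 for Nrp1, 1.07 for Ctsd, 1.16 for Ctsl, 0.65 for Ctsb, 0.85 for Lgals3 and 0.86 for Ms4a7. Against Mac3, with 1 Control library, they were −0.93 for Ifi27l2a and −1.52 for Ccl8. Against Mac4 they were 0.84 for Ctsd, 2.98 for Areg, 3.01 for Dbp, −1.27 for Atf3 and −0.66 for mt-Rnr1. Counts behind some of them are low in Control tissue-3, with 8 UMIs of Lgals3 in Mac2 and 1 in Mac1, 1 UMI of Areg in Mac2 and 13 in Mac4, and 7 UMIs of Dbp in Mac2 and 17 in Mac4.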

How the results depend on the processing

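The count of genes that passed between genotypes in Mac2 was 2 with TMM and with size factors, and 3 with library totals. It was 155 (82 higher, 73 lower) without the filter on low counts, 5 (2 higher, 3 lower) with preparation as a term, 197 (124 higher, 73 lower) in the libraries with joined names alone, 33 with DESeq2, 0 with 65 cells per library and 0 in G1 cells alone (edgeR, 228 and 417 genes at an unadjusted p under 0.05); a term for the way of annotation, added after the data were seen, gave 49 (25 higher, 24 lower). Leaving out 1 library gave 0 to 225. It was 0 without each YAP5SA library (336, 342 and 533 genes at an unadjusted p under 0.05), 26 when Control tissue-3 was left out and 225 when Control tissue-2 was. These settings change the libraries, cells or genes tested, and the cause was not tested. Where 1 Control library remains, it is assumed to vary like the YAP5SA libraries.

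Against Mac1 the count of 8 became 3 to 15 with 1 library left out (8 higher and 7 lower without Control tissue-2). Against Mac3 the count of 2 became 1 with size factors (higher in place of lower), 1 without the filter, 1 in tissue libraries alone and 1 to 5 with 1 library left out, with no value without Control tissue-2; with library totals it was 2, both higher, so no direction is drawn there. Against Mac4 the count of 5 became 3 with size factors and 3 without the filter, all higher in place of 3 of 5, 5, all higher, with library totals, and 0 to 40 with 1 library left out (4 higher and 36 lower without Control tissue-2). With 1 library left out the difference against Mac1 ran from −0.33 to 1.04 for Ctsb, −0.020 to 1.22 for Ctsd, −2.81 to 0.93 for Lgals3 and −0.50 to 1.07 for Ms4a7, and that against Mac4 from −0.95 to 1.02 for Ctsd; the negative values are those without Control tissue-2. Over the named genes 635 alternative values kept their side of the threshold, a group that also takes in sign changes where neither value passed. With the direction kept, 66 lost the call and 82 gained it. A further 5 changed sign where the main or the alternative value passed. No paired analysis was possible because the YAP5SA tissue libraries are numbered 1 and 2 in the table of cells and 2 and 3 in the titles. An alternative with cells free of cardiomyocyte and fibroblast UMIs was not run, since no Control cell met it. Depth limits the Control values, which rest on 144382 and 75238 UMIs.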

Other observations

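Retnla, a secreted resistin-like protein of alternatively activated macrophages, was high in Mac2 of 1 library. It had 49.3, 15.2 and 127 CPM in Mac2 of YAP5SA against 27.7 and 6047 CPM in Control. With 600 UMIs per cell, 2.53%, 1.31% and 2.33% of Mac2 cells in YAP5SA held a Retnla UMI against 1.54% and 35.4% in Control, where fibroblasts of Control tissue-3 gave 6.51%. In Mac1 its level was 3.49, 3.79 and 0 CPM in YAP5SA against 0 and 1051 CPM in Control, so Control tissue-3 was the high library there as well. Ccl24, an eosinophil-attracting chemokine, had 45.2, 9.09 and 45.2 CPM in Mac2 of YAP5SA against 139 and 970 CPM in Control (log2 fold change −4.34, edgeR adjusted p = 0.545).

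Erythroid transcripts stood out in another library. The 5 erythroid markers summed to 2.73, 4.85 and 1488 CPM in Mac2 of YAP5SA against 6.92 and 26.5 CPM in Control, so YAP5SA enriched was the high one.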
